A study of Mus musculus with 6 samples.

Results

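*Tmem120a* and *Tmem120b* are the 2 members of a gene family that codes for transmembrane proteins, and they are 2 of the 36144 gene symbols in the authors' table of inguinal white adipose tissue (iWAT). The pair was chosen by the measured values of *Tmem120a* in these 6 libraries, which fell strongly in Cebpa_ASKO, and *Tmem120b* came with it as its paralogue. The values of *Tmem120a* are therefore a description without a test, whereas *Tmem120b* was tested with the other genes. Both passed the filter on low counts and were among the 16069 genes in the fit.

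The study compared whole iWAT, the subcutaneous fat of the groin, between 3 Cebpa_fl/fl and 3 Cebpa_ASKO mice. *Cebpa* codes for C/EBPα, a transcription factor of fat cell development. All 6 mice were 10-week-old females on the C57BL6/J background, fed ad libitum, and all carried floxed *Cebpa*. The paper describes the mice of this experiment as lean and chow-fed. Cebpa_fl/fl mice lacked the AdipoQ-Cre transgene and Cebpa_ASKO mice carried it, so that *Cebpa* was deleted in cells that express adiponectin, while the other cells of the depot kept it. Both inguinal depots of a mouse were extracted together after the lymph nodes were removed, mRNA was enriched by poly-A pull-down, and the labels give all 6 libraries 1 batch number. The transgene and the deletion cannot be told apart in this design, since no group carried AdipoQ-Cre without floxed *Cebpa*.

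TMEM120A, also known as NET29 and TACAN, is a multi-pass membrane protein of the nuclear envelope and endoplasmic reticulum that is abundant in fat and promotes adipocyte differentiation. It has been described as a candidate mechanically gated channel, but its fold resembles that of the fatty acid elongases and its structure holds a bound coenzyme A. TMEM120B is its close relative at the same membranes and is less well studied.

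*Tmem120a* (ENSMUSG00000039886.8) lies on the minus strand of chromosome 5 at chr5:135735485-135744448 (GRCm38, GENCODE M21), and *Tmem120b* (ENSMUSG00000054434.14) lies on the plus strand of the same chromosome at chr5:123068415-123117749. The gene body of *Tmem120a* spans 8964 bases and that of *Tmem120b* 49335 bases, yet the main mRNA of each has 12 exons, and exons 2 to 11 have the same length in both. The main mRNA of *Tmem120a*, Tmem120a-201, is 1559 bases long with a coding length of 1032 bases, and that of *Tmem120b*, Tmem120b-201, is 2164 bases long with a coding length of 1020 bases. The coding sequences were identical at 721 of 1011 aligned bases (71.3%).

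Exon 6, which is wholly coding, was the most alike of the 10 exons of equal length, with 78 of 90 bases identical (86.7%). It is shown because it marks the limit of what could be confused between the paralogues, from chr5:135736746-135736835 on the minus strand and chr5:123104422-123104511 on the plus strand, read from the GENCODE M21 transcripts. Capitals mark the 12 bases at which the exons differ.
Tmem120a exon 6: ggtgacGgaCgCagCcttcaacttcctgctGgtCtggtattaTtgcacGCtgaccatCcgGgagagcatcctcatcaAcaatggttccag
Tmem120b exon 6: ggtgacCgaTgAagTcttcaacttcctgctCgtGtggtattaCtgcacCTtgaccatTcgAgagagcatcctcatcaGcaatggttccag

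Exon 3, also wholly coding, was the least alike, with 66 of 117 bases identical (56.4%), and is shown as the other end of the range. It lies at chr5:135741966-135742082 on the minus strand in *Tmem120a* and at chr5:123099837-123099953 on the plus strand in *Tmem120b*, and capitals again mark the bases that differ, here 51.
Tmem120a exon 3: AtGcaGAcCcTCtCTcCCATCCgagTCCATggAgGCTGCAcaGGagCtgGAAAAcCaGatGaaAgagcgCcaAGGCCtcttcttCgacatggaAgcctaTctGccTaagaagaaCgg
Tmem120b exon 3: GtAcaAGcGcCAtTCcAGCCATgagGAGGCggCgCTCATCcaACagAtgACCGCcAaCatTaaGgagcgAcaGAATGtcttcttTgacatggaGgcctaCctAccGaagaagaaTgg

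The longest exact run common to the main mRNAs was 16 bases, and no run of 31 bases, the default word length of the program kallisto that assigned the reads, occurred in both. None of the 1529 such words of Tmem120a-201 occurred in an mRNA of another gene. Of the 2134 words of Tmem120b-201, 451 (21.1%) also occurred in *Rhof*, a gene on the opposite strand that shares 523 exonic bases with *Tmem120b*. Whether strand was used in the counting is not given in the sources used here, so reads from that overlap are uncertain between *Tmem120b* and *Rhof*.

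The libraries held 33141769 to 49477671 estimated counts. *Cebpa* itself stood at 448, 465 and 498 CPM (counts relative to the library total, adjusted by edgeR's TMM factors) in Cebpa_fl/fl and at 37.7, 45.8 and 37.2 CPM in Cebpa_ASKO, so 8.55% remained in whole tissue. The summed CPM of 25 adipocyte markers lay between 58063 and 66880 in Cebpa_fl/fl and between 20388 and 24625 in Cebpa_ASKO. That of 21 skeletal muscle genes lay between 807 and 1103 in Cebpa_fl/fl and between 2490 and 7072 in Cebpa_ASKO, and that of 15 tested mammary epithelium genes between 931 and 2074 in Cebpa_fl/fl and between 2767 and 2837 in Cebpa_ASKO. The 10 tested lymphocyte genes summed to 346 CPM in Cebpa_fl/fl library 1 and to between 8.81 and 19.9 CPM in the other 5 libraries. In bulk tissue, fewer cells of a type and less RNA per cell cannot be told apart, and the part of these differences in cell type markers in the levels of *Tmem120a* and *Tmem120b* was not tested.

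*Tmem120a* stood at 157, 161 and 162 TPM (a length-normalized share of the transcripts) in the Cebpa_fl/fl libraries and at 30.1, 32.5 and 26.6 TPM in the Cebpa_ASKO libraries. Every Cebpa_ASKO library was far below every Cebpa_fl/fl library (13.2% of all genes tested were lower without overlap), and within each genotype the libraries lay close together. The means were 160 ± 2.62 TPM and 29.7 ± 3.01 TPM (SD, n = 3), and the Cebpa_ASKO mean was 18.6% of that in Cebpa_fl/fl per length. On the CPM scale the values were 182, 168 and 181 against 36.0, 33.2 and 26.8, with means of 177 ± 7.92 and 32.0 ± 4.75 CPM (SD, n = 3), a 5.52-fold difference. They rested on 7905 to 8523 estimated counts for each Cebpa_fl/fl library and on 1137 to 1301 for each Cebpa_ASKO library.

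The fitted log2 fold change of *Tmem120a*, Cebpa_ASKO over Cebpa_fl/fl, was −2.46 with a standard error of 0.130 and a 95% confidence interval from −2.78 to −2.15. Of the 16069 genes tested, 193 had a lower log2 fold change, and *Tmem120a* with them made up 1.21% of the genes. This position follows from the way the gene was chosen and is given as a description. The interval takes no account of that choice and is not a test. Ordered by TPM within a library, *Tmem120a* ranked 661, 702 and 663 among all symbols in Cebpa_fl/fl, and 3279, 3367 and 4142 in Cebpa_ASKO. By comparison, *Adipoq*, the gene of the fat cell hormone adiponectin whose promoter drives the Cre, had a log2 fold change of −2.93, with 13.2% of its control CPM left.

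*Tmem120b* stood at 39.4, 40.0 and 81.9 TPM in Cebpa_fl/fl and at 40.3, 43.3 and 35.1 TPM in Cebpa_ASKO. The genotypes overlapped, and Cebpa_fl/fl libraries 1 and 2 lay within the range of the Cebpa_ASKO libraries. The exception was Cebpa_fl/fl library 3, which was 2.06 times the mean of the other two Cebpa_fl/fl libraries (39.7 TPM). Mean levels were 53.7 ± 24.4 TPM and 39.5 ± 4.14 TPM (SD, n = 3), and an exact two-sided permutation test over the 6 libraries gave p = 0.6, where the smallest p that 3 against 3 allows is 0.1.

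In CPM, *Tmem120b* stood at 64.0, 56.5 and 113 in Cebpa_fl/fl and at 62.9, 56.7 and 42.7 in Cebpa_ASKO (77.8 ± 30.6 against 54.1 ± 10.3 CPM, SD, n = 3; exact two-sided permutation p = 0.3). The log2 fold change was −0.53, with a standard error of 0.283 and a 95% confidence interval from −1.20 to 0.15, and it did not pass edgeR's quasi-likelihood test (adjusted p = 0.373, Benjamini-Hochberg). In that test 3.84% of all genes were called lower and 1.39% higher in Cebpa_ASKO at an adjusted p below 0.05. The interval leaves room for a fall of more than 1 on the log2 scale and for a small rise. Leaving out Cebpa_fl/fl library 3 moved the log2 fold change to −0.16 (edgeR, adjusted p = 0.708), and leaving out Cebpa_fl/fl library 2 moved it to −0.72 (adjusted p = 0.182).

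**Figure D1:**
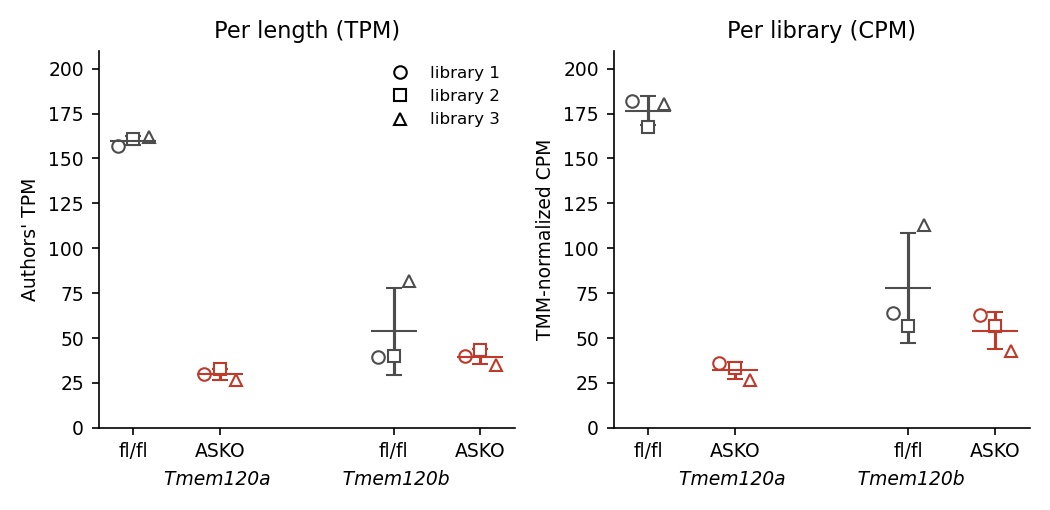
Levels of *Tmem120a* and *Tmem120b* in each library, as the authors' TPM on the left and as TMM-normalized CPM on the right, with each genotype's mean and SD (horizontal line and bar, n = 3) and the marker shape giving the library number. *Tmem120a* lay at 157 to 162 TPM in Cebpa_fl/fl and at 26.6 to 32.5 TPM in Cebpa_ASKO, while *Tmem120b* overlapped between genotypes and reached 81.9 TPM only in Cebpa_fl/fl library 3.

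The order of the paralogues by TPM turned between the genotypes. *Tmem120a* was above *Tmem120b* in all 3 Cebpa_fl/fl libraries, by ratios of 3.99, 4.02 and 1.98, and below it in all 3 Cebpa_ASKO libraries, by ratios of 0.748, 0.752 and 0.757. The low ratio of 1.98 belonged to the library in which *Tmem120b* was high. Mean ratios were 3.33 ± 1.17 and 0.753 ± 0.00446 (SD, n = 3), so that the ratio in Cebpa_ASKO was 22.6% of that in Cebpa_fl/fl, and 24.9% when protein-coding transcripts alone were counted. Since the fall of *Tmem120a* chose the pair, the ratio was not tested.

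Summed over the family, the level was 196, 201 and 244 TPM in Cebpa_fl/fl and 70.4, 75.8 and 61.6 TPM in Cebpa_ASKO (214 ± 26.3 against 69.3 ± 7.15 TPM, SD, n = 3), or 32.4% of control. *Tmem120a* made up 79.9%, 80.1% and 66.4% of that sum in Cebpa_fl/fl and 42.8%, 42.9% and 43.1% in Cebpa_ASKO. No Cebpa_ASKO library had a level of *Tmem120b* above that of Cebpa_fl/fl library 3 (81.9 TPM). Against Cebpa_fl/fl libraries 1 and 2 (39.4 and 40.0 TPM), Cebpa_ASKO libraries 1 and 2 were higher (40.3 and 43.3 TPM). Cebpa_ASKO library 3 was lower (35.1 TPM).

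Of the 5 annotated transcripts of *Tmem120a*, the protein-coding Tmem120a-201 carried most of the level in every library. It ran from 141 to 153 TPM in Cebpa_fl/fl and from 24.8 to 29.7 TPM in Cebpa_ASKO, and its share of the gene was 91.6 ± 2.30% and 93.3 ± 1.97% (SD, n = 3). The shares overlapped (exact two-sided permutation p = 0.4, adjusted to 0.6 over the 3 transcripts with a mean share of at least 5%). Tmem120a-203, a transcript with a retained intron, had 9.52 ± 3.14 TPM in Cebpa_fl/fl and 1.12 ± 1.08 TPM in Cebpa_ASKO, and Tmem120a-202, also with a retained intron, had 2.62 ± 0.433 and 0.668 ± 0.350 TPM. Tmem120a-205, a processed transcript, had 1.13 ± 0.415 and 0.209 ± 0.191 TPM. The lower level of *Tmem120a* thus lay in its main mRNA, in both retained-intron transcripts and in Tmem120a-205. The usage of the main mRNA was between 89.8% and 94.2% in Cebpa_fl/fl and between 91.4% and 95.3% in Cebpa_ASKO.

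*Tmem120b* has 8 annotated transcripts, and Tmem120b-201 led in every library with 34.5, 33.8 and 62.4 TPM in Cebpa_fl/fl and 33.8, 33.3 and 25.6 TPM in Cebpa_ASKO. Its share of the gene was 82.8 ± 5.98% and 77.9 ± 5.49% (SD, n = 3; exact permutation p = 0.4, adjusted p = 0.6). Tmem120b-205, with a retained intron, was next at 11.2 ± 4.59% and 12.9 ± 1.39% (exact permutation p = 0.6, adjusted p = 0.6). The high level in Cebpa_fl/fl library 3 was present in both, since Tmem120b-205 stood there at 13.5 TPM against 3.37 to 5.40 TPM in the other 5 libraries. Tmem120b-207 was listed at 0 in all libraries, and the other 5 transcripts had mean shares below 5%. Among them, Tmem120b-206, a transcript of nonsense-mediated decay, held 0.835% to 1.37% in Cebpa_fl/fl and 1.79% to 3.19% in Cebpa_ASKO. Tmem120b-208, with a retained intron, held 1.03% to 1.56% and 1.74% to 5.57% (exact two-sided permutation p = 0.1 for each, not adjusted). The shares of the others overlapped.

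**Figure D2:**
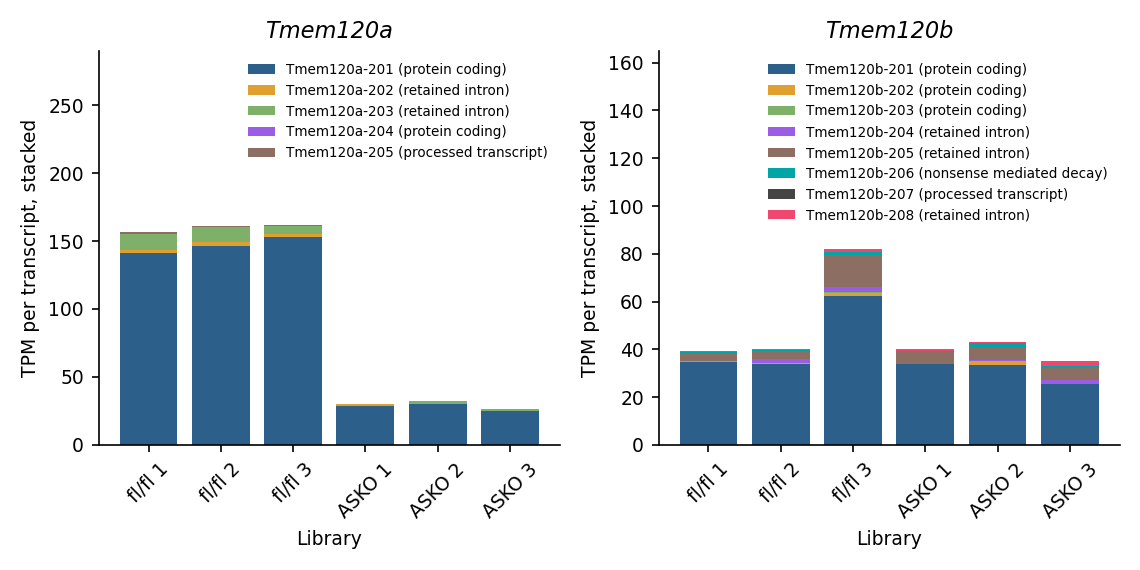
Authors' TPM of each annotated transcript of *Tmem120a* (left) and *Tmem120b* (right), stacked by library, with different vertical scales. The protein-coding transcripts Tmem120a-201 and Tmem120b-201 made up most of every bar, and the tall *Tmem120b* bar of Cebpa_fl/fl library 3 held 62.4 TPM of Tmem120b-201 and 13.5 TPM of Tmem120b-205.

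The tables of RefSeq promoters (GRCm38.p6, 250 bases before to 50 after each start) held 1 entry for each gene and were searched on both strands for short motifs. The RefSeq start of *Tmem120a* lay 276 bases inside exon 1 of Tmem120a-201, so all 300 bases of its window fell within that exon, whereas RefSeq and GENCODE gave *Tmem120b* the same start. TTGCNNAA, a C/EBP motif, did not occur in either window, against 10.8% of all 32851 promoter windows. CCAAT occurred 1 time for *Tmem120a* and in 37.4% of all windows, and GGGCGG, an SP1 and KLF motif, occurred 4 times for *Tmem120a* and 1 time for *Tmem120b*, against 35.7% of windows with at least 1.

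The *Tmem120b* window held TGACGTCA, the cyclic AMP response element, which 1.79% of windows had, and an NRF1 motif, which 0.971% had, and that of *Tmem120a* held neither. A PPAR motif (0.0396% of windows) occurred in neither window. CACGTG, an E-box present in 7.15% of windows, occurred in neither as well. A match of letters is a description of these windows alone.

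The 5 nearest tested genes on each side of each member were examined for changes along the chromosome. Among these 20 genes the median log2 fold change was −0.04, against 0.02 over all genes tested, and edgeR's quasi-likelihood test called 2 lower and none higher (adjusted p below 0.05). At an unadjusted p below 0.05, 5 were lower and 1 higher, and DESeq2 called 4 lower and 1 higher. Over all genes, 5.23% were called in either direction.

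The called neighbour of *Tmem120a* was *Por*, which codes for cytochrome P450 oxidoreductase, the electron donor of microsomal P450 enzymes. It ends 159 bases from the 3′ end of *Tmem120a* on the other strand, and no exonic bases are shared. *Por* stood at 220, 222 and 264 CPM in Cebpa_fl/fl and at 127, 118 and 114 CPM in Cebpa_ASKO, and fell by 0.98 on the log2 scale (SE 0.109, edgeR adjusted p = 0.00471). The genotypes did not overlap, as was the case in either direction for 26.1% of all genes tested. On the other side, *Styxl1*, a pseudophosphatase gene 2772 bases away, overlapped between genotypes with 0.424 to 0.827 CPM against 0.404 to 0.856 CPM (log2 fold change −0.01).

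The remaining neighbours of *Tmem120a* did not pass the test, with log2 fold changes from −0.48 for *Hip1* to 0.99 for *Srrm3*, which had at most 0.634 CPM. Between them were *Rhbdd2* (−0.28), *Pom121* (−0.15), *Ywhag* (−0.01), *Mdh2* (0.24), *Ccl24* (0.29) and *Hspb1* (0.73).

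Near *Tmem120b* the called gene was *Hpd*, which codes for 4-hydroxyphenylpyruvate dioxygenase of tyrosine breakdown and lies 54058 bases away. It had 66, 105 and 105 counts in Cebpa_fl/fl and 0 in each Cebpa_ASKO library, at least 75.8-fold lower when 3 counts over the Cebpa_ASKO group were taken as the limit of a count of 0 (edgeR adjusted p = 0.00435). *Rhof*, whose exons overlap those of *Tmem120b*, stood at 8.11, 2.03 and 1.29 CPM against 0.919, 1.33 and 1.10 CPM (log2 fold change −1.77, edgeR adjusted p = 0.224). *Rhof* was highest in Cebpa_fl/fl library 1, and *Tmem120b* in library 3. Reads from the shared bases can be divided between these genes, and their part in either value was not tested.

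The other neighbours of *Tmem120b* lay between −0.30 (*Camkk2*) and 0.18 (*Setd1b*) and none passed the test. *Orai1*, the pore subunit of the store-operated calcium channel, had a log2 fold change of 0.15, and *Anapc5*, *Psmd9*, *Rnf34*, *Kdm2b* and *Wdr66* had 0.13, 0.04, −0.06, −0.11 and −0.27. *Kdm2b* and *Rnf34* were above 0 when transcript length entered the fit.

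**Figure D3:**
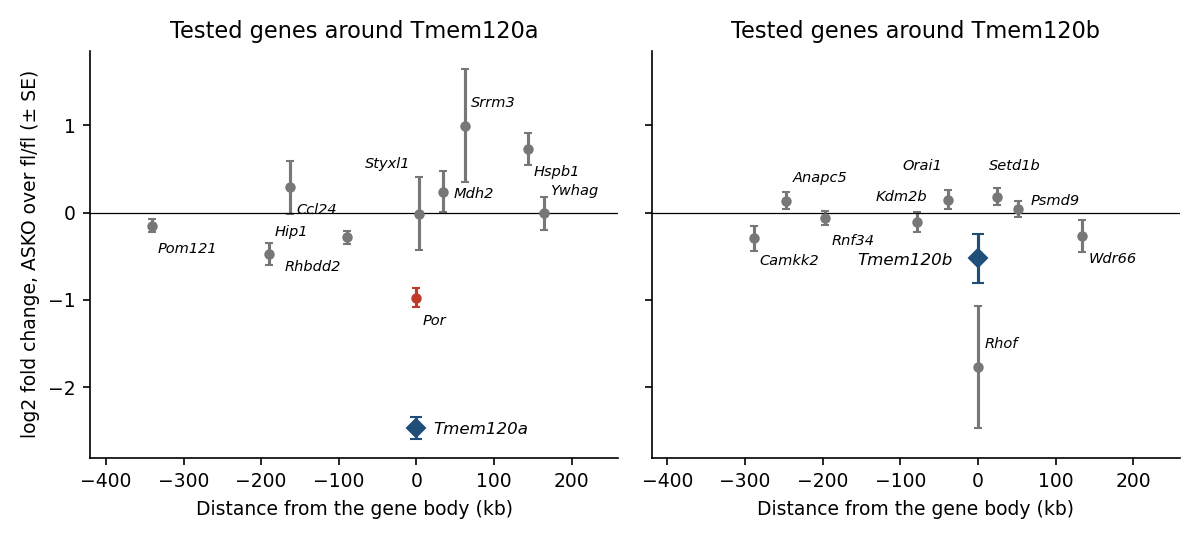
Log2 fold change with its standard error (Cebpa_ASKO over Cebpa_fl/fl, 3 libraries each) of the tested genes around *Tmem120a* (left) and *Tmem120b* (right), against the distance from the member's gene body in kb, with called neighbours in red and the members as diamonds. *Por*, 159 bases from *Tmem120a*, was at −0.98 and *Tmem120a* at −2.46, and *Hpd*, with 0 counts in Cebpa_ASKO, is not drawn.

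TMEM120A belongs to the proteins of the nuclear envelope, and 34 other genes of that compartment were all tested. Their median log2 fold change was −0.02, with 20 lower and 14 higher, and edgeR's quasi-likelihood test called 2 lower and none higher, where 3.84% of all genes were called lower and 1.39% higher. A count of 2 in 34 is near that background. At an unadjusted p below 0.05, 6 were lower and 3 higher, and DESeq2 called 3 lower and 2 higher. None had a log2 fold change as low as that of *Tmem120a*. *Tmem43*, which codes for LUMA, a lamin-binding inner membrane protein, stood at 162, 250 and 208 CPM against 77.4, 68.7 and 78.1 CPM and fell by 1.47 on the log2 scale (edgeR adjusted p = 0.00506).

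*Syne1*, which codes for nesprin-1, a linker of the nucleus to actin, was at 45.1, 44.8 and 65.8 CPM against 25.5, 31.2 and 25.1 CPM and fell by 0.93 (edgeR adjusted p = 0.0351). This call was lost under 9 of the 16 alternatives, among them each library left out except Cebpa_fl/fl 2 and 3. The lamin genes did not pass the test, with log2 fold changes of 0.31 for *Lmna* (lamin A/C) and −0.26 for *Lmnb1* (lamin B1). Neither did *Sun2* (−0.30) and *Sun1* (0.11), the inner membrane anchors of the nesprins, nor *Lbr* (−0.17), the lamin B receptor, nor *Emd* (0.09), emerin. *Lbr* was at 0.01 without Cebpa_fl/fl library 1.

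The fold of TMEM120A resembles that of the ELOVL elongases, which add carbons to long-chain acyl-CoA. Of 14 genes of fatty acid elongation, 12 were tested, with a median of −0.24, and edgeR called 1 lower and none higher (3.84% and 1.39% over all genes). At an unadjusted p below 0.05, 4 were lower and 1 higher, and DESeq2 called 3 lower and 1 higher. The called gene was *Hacd1*, an acyl-CoA dehydratase of the elongation cycle, at 17.3, 21.2 and 17.3 CPM against 9.89, 10.4 and 11.2 CPM (log2 fold change −0.83, edgeR adjusted p = 0.0145). It lost the call without Cebpa_ASKO library 1 or 2 (adjusted p up to 0.0826).

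Within this list, *Elovl7* had a log2 fold change of 1.02 (edgeR adjusted p = 0.0872). *Elovl6*, the elongase of newly made palmitate, spread more within Cebpa_fl/fl than between genotypes, at 413, 59.2 and 738 CPM against 294, 278 and 264 CPM. Cebpa_fl/fl library 3, in which *Tmem120b* was high, thus also held the highest *Elovl6*, and Cebpa_fl/fl library 2 the lowest.

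Coenzyme A is bound by TMEM120A, and 14 genes of coenzyme A supply and breakdown had a median of −0.13. edgeR called 2 lower and none higher, against 3.84% lower over all genes. Both at an unadjusted p below 0.05 and by DESeq2, 4 were lower and none higher. *Pank3*, a pantothenate kinase of the committed step of coenzyme A synthesis, stood at 346, 302 and 457 CPM against 180, 183 and 171 CPM (log2 fold change −1.05, edgeR adjusted p = 0.0173). Leaving out any Cebpa_ASKO library ended this call (adjusted p up to 0.0935). *Vnn3*, of the pantetheinase family, stood at 15.8, 32.3 and 23.0 CPM against 0.222, 0.664 and 0.584 CPM (log2 fold change −5.55, edgeR adjusted p = 0.00136).

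Among 17 genes of mechanically gated channels, a class to which TMEM120A has been assigned, 12 were tested. Their median was 0.06, and edgeR called 1 lower and none higher, against 3.84% lower over all genes. At an unadjusted p below 0.05, 1 was lower and 1 higher, and DESeq2 called 1 lower and none higher. The called gene was *Kcnk2*, which codes for TREK-1, a stretch-sensitive potassium channel, at 10.5, 16.4 and 15.7 CPM against 0.317, 0.664 and 0.426 CPM (log2 fold change −4.90, edgeR adjusted p = 0.000783). The stretch-activated cation channels did not pass the test, with log2 fold changes of −0.08 for *Piezo1*, which was at 0.01 without Cebpa_fl/fl library 3, and 0.75 for *Piezo2*.

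Of 18 genes of inherited lipodystrophy, many of them of lipid droplets, the nuclear lamina or adipocyte differentiation, 5 fell by edgeR's test and none rose, with a median of −0.15, and over all genes 3.84% fell. At an unadjusted p below 0.05, 7 were lower and 1 higher, and DESeq2 called 7 lower and none higher. Those that fell were *Cidec*, a lipid droplet protein gene (−2.49), *Bscl2*, which codes for seipin (−1.73), *Plin1*, perilipin 1 (−1.12), *Cav1*, caveolin 1 (−1.12), and *Pparg*, the nuclear receptor of adipogenesis (−0.78). The call of *Plin1* was lost without Cebpa_ASKO library 1 or 2 (edgeR adjusted p = 0.0656 and 0.0806), that of *Cav1* without Cebpa_ASKO library 2 (0.0630) and that of *Pparg* without Cebpa_ASKO library 1 (0.0700). *Cidec* was the only member of the list with a lower log2 fold change than *Tmem120a*. *Bscl2*, like TMEM120A a protein of the endoplasmic reticulum, stood at 243, 238 and 292 CPM against 78.2, 69.9 and 84.6 CPM. The lists are not separate. *Cidec*, *Plin1*, *Pparg*, *Lipe* and *Agpat2* are also among the adipocyte markers, and *Lmna*, *Lmnb2*, *Banf1* and *Zmpste24* among the nuclear envelope genes.

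Among the 25 adipocyte markers, 15 fell by edgeR's test and none rose, with a median of −1.24, against 3.84% lower and 1.39% higher over all genes. Both at an unadjusted p below 0.05 and by DESeq2, 19 were lower and none higher. The log2 fold change of *Tmem120a* was thus below the median of the markers, and 6 of them (*Retn*, *Adrb3*, *Cfd*, *Adipoq*, *Cidec* and *Acvr1c*) had a lower value. That of *Tmem120b* lay above the median of the markers. By direction alone, 24 markers were lower and 1 was higher, *Gpd1* (log2 fold change 0.82, edgeR adjusted p = 0.331), and *Slc2a4* was at −0.0011.

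**Figure D4:**
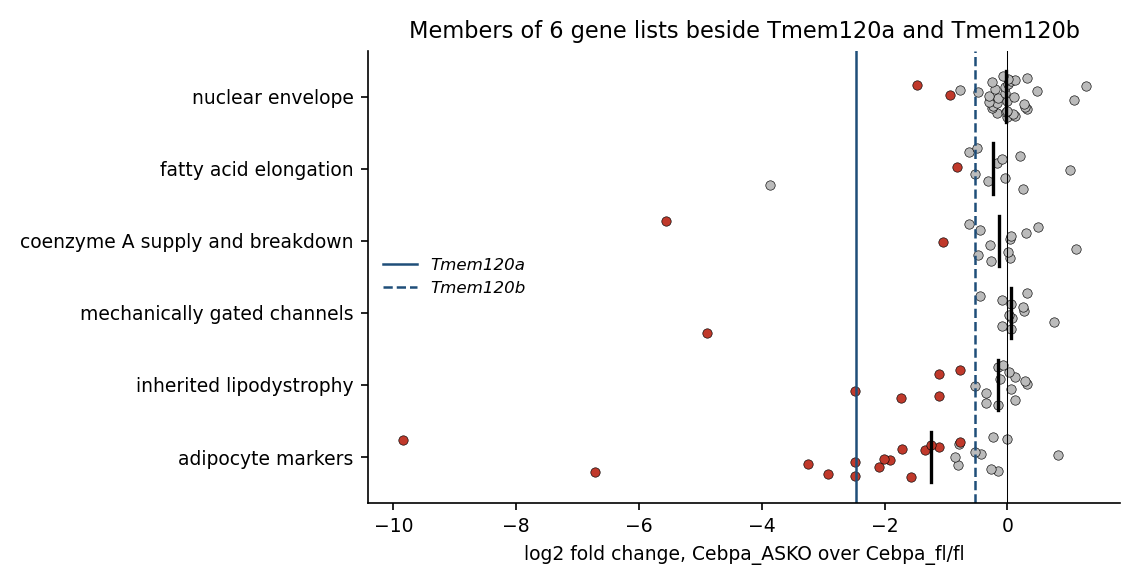
Log2 fold change (Cebpa_ASKO over Cebpa_fl/fl, 3 libraries each) of every tested member of 6 gene lists, with called members in red, the median of each list as a black bar, and *Tmem120a* and *Tmem120b* as vertical lines. The nuclear envelope list centred on −0.02 and the adipocyte markers on −1.24, while the lines of *Tmem120a* and *Tmem120b* stand at −2.46 and −0.53.

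The genes most like each member were taken by the root mean square difference of their log2 CPM, centred on the mean of the 6 libraries, among 10311 genes. For *Tmem120a* these were *Hebp1*, a heme-binding protein gene (0.185), *Mmd* (0.193), *Adtrp*, a hydrolase of fatty acid esters of hydroxy fatty acids (0.202), *Ghr*, the growth hormone receptor (0.225), and *Kcns3*, a modifier subunit of voltage-gated potassium channels (0.229). Each was lower in every Cebpa_ASKO library than in any Cebpa_fl/fl library, as were 13.2% of all genes tested. Their log2 fold changes ran from −2.65 (*Ghr*) to −2.26 (*Hebp1* and *Mmd*). Both follow from the choice of genes for likeness to *Tmem120a* and are given as a description. *Hebp1*, the nearest, stood at 71.2, 67.1 and 84.3 CPM against 16.7, 14.3 and 15.4 CPM.

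For *Tmem120b* the nearest were *Mapk8ip1*, a scaffold of the JNK pathway (0.119), *Tecr*, the enoyl reductase of the fatty acid elongation cycle (0.157), *Sc5d*, a sterol desaturase (0.163), *Ptprd*, a receptor tyrosine phosphatase (0.163), and *Matn2*, a matrix protein gene (0.165). By the same choice, all 5 were highest in Cebpa_fl/fl library 3, as *Tmem120b* was. *Mapk8ip1* stood at 29.4, 22.1 and 44.4 CPM in Cebpa_fl/fl and at 25.2, 26.5 and 20.1 CPM in Cebpa_ASKO, and *Tecr* at 235, 175 and 303 CPM against 183, 170 and 150 CPM. None of the 5 passed edgeR's test in the comparison of genotypes, and their log2 fold changes ran from −0.50 to −0.36. Likeness was measured over 6 libraries that share the genotype contrast, and it carries no p.

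**Figure D5:**
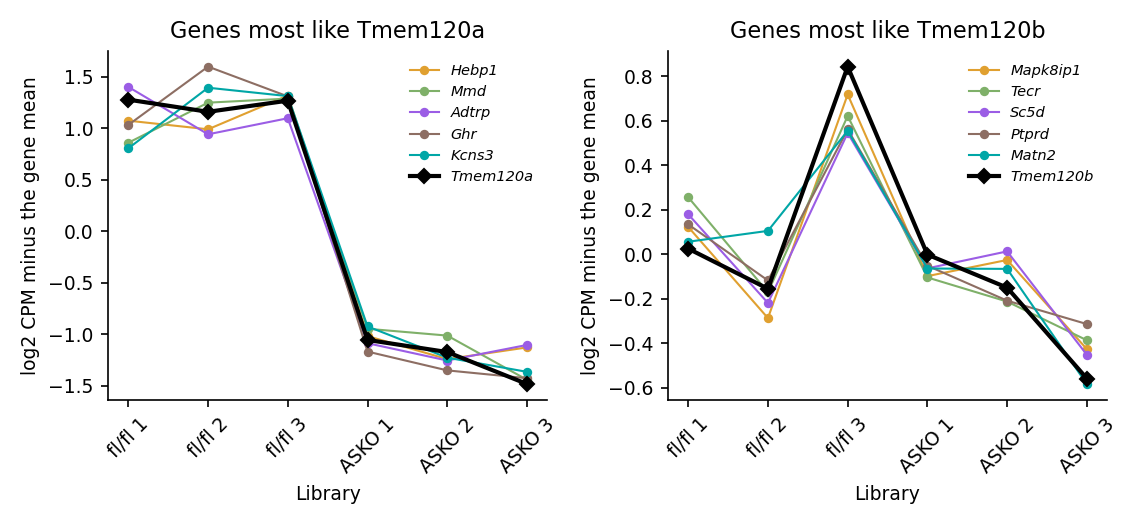
Log2 CPM minus each gene's own mean over the 6 libraries, for *Tmem120a* (left, black) and *Tmem120b* (right, black) with the 5 genes nearest to each, where lines only join the values of a gene. The genes like *Tmem120a* separate by genotype, whereas those like *Tmem120b* share a high value in Cebpa_fl/fl library 3. Both patterns follow from how the genes were chosen.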

How the data were processed

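Whole iWAT of 3 Cebpa_fl/fl and 3 Cebpa_ASKO mice was measured by poly-A RNA-seq, with genotype and replicate taken from the sample labels. The authors deposited estimated counts and TPM for each of 118489 transcripts and TPM summed for each symbol, and the submitters' processing notes list kallisto 0.44.0 and the builds GRCm38.p6 and GRCh38.p12, while the transcript annotation and the use of strand are not given in the sources used here. kallisto divides reads that match several transcripts among them, so transcript values are less certain than gene values. Here 116816 transcripts (98.6%) were matched to GENCODE M21 by identifier, and their estimated counts, between 99.5% and 99.6% of each library, were summed for each symbol and rounded.

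Genes were compared between the 2 genotypes by edgeR's quasi-likelihood test (edgeR 4.0.16, R 4.3.3), with TMM factors from 0.956 to 1.06, filterByExpr, Benjamini-Hochberg adjustment over 16069 genes and a threshold of 0.05. Single values were compared by exact two-sided permutation over the 20 arrangements (scipy 1.17.1). The labels do not name the mice, so p-values measure the spread between these libraries. The code was tested on simulated counts. Between replicates of a genotype, chi-square divided by its degrees of freedom ran from 27.0 to 240, beyond sampling noise. Same-numbered libraries did not deviate together (r of 0.06, 0.03 and −0.18), so the numbers were not taken as pairs. The paper bred the genotypes as true littermates, and 3 libraries per genotype are too few to decide whether litters paired them.

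Alternatives were DESeq2 1.42.0 and its size factors, total counts, 2 other filters, a length offset, limma 3.58.1 on log2(TPM + 1) and log2(TPM + 0.1), the replicate block, protein-coding transcripts alone and each library left out. A pseudocount understates changes of low genes. The members and the gene lists were chosen with earlier results of these data known. Named genes are the members, all neighbours, the called members of each list (up to 5 with the largest change), named examples of what a list holds, the 5 genes most like each member (mean log2 CPM not under 3), and *Cebpa* and *Adipoq*.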

Additional observations from a re-analysis of the deposited data

How the results depend on the processing

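The log2 fold change of *Tmem120a* lay between −2.56 and −2.37 in all 17 alternatives, and *Tmem120b* stayed lower and uncalled in all 17, between −0.72 and −0.16 with adjusted p from 0.182 to 0.708. Counts moved more. With DESeq2, all genes gave 1135 lower and 667 higher, neighbours 4 and 1, nuclear envelope 2 higher, elongation 3 and 1, and coenzyme A 4 lower. limma without a filter gave 285 lower and 74 higher, nuclear envelope 0, elongation 0 and coenzyme A 1 lower, and limma at either pseudocount and the length offset gave 1 nuclear envelope gene lower. With at least 10 counts in every library, neighbours and coenzyme A had 1 lower each. The replicate block gave 296 lower and 74 higher over all genes, 1 lower for neighbours, nuclear envelope and coenzyme A, 0 for elongation, 2 for lipodystrophy and 9 for adipocyte markers, where *Hpd*, *Syne1*, *Hacd1*, *Pank3*, *Plin1*, *Cav1* and *Pparg* were not called, and *Tmem120b* was at −0.47 (adjusted p = 0.564). The replicate numbers were not taken as pairs in the main fit.

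Leaving out 1 library gave 278 to 658 lower and 33 to 264 higher over all genes, neighbours 0 to 1 higher, nuclear envelope 1 to 3 lower and 0 to 1 higher, elongation 0 to 4 lower, coenzyme A 1 to 4 lower and lipodystrophy 3 to 5 lower. Genes near 0 changed sign. Without a library, *Lbr* ran from −0.33 to 0.015, *Piezo1* from −0.15 to 0.0082, *Styxl1* from −0.26 to 0.24, *Ywhag* up to 0.12 and *Psmd9* from −0.033 to 0.085. With total counts, *Styxl1* was at 0.019 and *Ywhag* at 0.034, and with the length offset *Styxl1*, *Ywhag*, *Kdm2b* and *Rnf34* were at 0.0082, 0.013, 0.0062 and 0.25. With limma on log2(TPM + 1), with and without the filter, they were at 0.029, 0.071, 0.051 and 0.29, and with the smaller pseudocount at 0.029, 0.071, 0.055 and 0.32. The cause of these shifts was not tested. The spread of *Tmem120b* within Cebpa_fl/fl limits what can be said of its change.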
